A study of Mus musculus with 59 samples.

Results

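The striatum is the input nucleus of the basal ganglia, and here its gene expression in normal mice was set against that of 4 other brain regions. The data were read counts per gene from 20 RNA sequencing libraries of wild-type (WT) mice on a C57BL/6 background at 10 weeks of age, taken from a series of 59 libraries that was made to follow mice with an expanded CAG repeat in Atxn1, a model of spinocerebellar ataxia type 1. Striatum, cerebellum, brainstem, hippocampus and cortex were each represented by 4 WT libraries, labelled with the numbers 70, 77 and 220 and as WT-221, and each label is used here as the name of a mouse. Mutant mice of the same strain and age, named 154Q and 154Q-AXH in the labels, enter at the end. A gene was called regional when the striatum differed from all 4 other regions in the same direction, each time with a Benjamini-Hochberg adjusted p under 0.05 in edgeR's quasi-likelihood test. By that rule 566 of 22200 tested genes were higher and 167 were lower in the striatum.

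About the tissue, the following is textbook background. Most striatal neurons are spiny projection neurons that release GABA, the main inhibitory transmitter. Those of the direct pathway carry the dopamine receptor Drd1 and the peptides substance P and dynorphin, and those of the indirect pathway carry the dopamine receptor Drd2, the adenosine receptor Adora2a and the peptide enkephalin. Both kinds turn dopamine and adenosine signals into changes of cyclic AMP (cAMP), through a G protein, an adenylyl cyclase, phosphodiesterases and protein kinase A, and small groups of interneurons, among them cholinergic ones, lie between them.

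The 4 WT striatal libraries were not alike. Levels are given as CPM, the counts of a gene relative to the size of its library, after scaling between libraries by edgeR's trimmed mean of M values. The glutamate transporter gene Slc17a7, which loads vesicles of cortical excitatory neurons, was at 1396, 1436, 481 and 1508 CPM in the striatal libraries in the order of mice 70, 77, 220 and then WT-221, and at 1517 to 1758 CPM in the cortical libraries. Tbr1, a transcription factor of cortical projection neurons, was at 119, 127, 44.8 and 120.4 CPM in the same order, against 123 to 135 CPM in cortex. Thus the library of mouse 220 was low and the other 3 striatal libraries lay near the cortical level for both genes. Over 14 cortical excitatory marker genes, none of them at 0 in any striatal library, the median level was 80.0%, 89.9%, 30.1% and 90.6% of the cortical mean, and the summed level was 2837 CPM for mouse 220 and 6153 to 6731 CPM for the other 3, on a scale set across all 59 libraries. The labelled markers of the striatum moved the other way: Drd1 was at 91.3, 67.6, 212 and 75.6 CPM and Adora2a at 159, 115, 406 and 110.1 CPM. All 4 striatal libraries were above every library of the other regions for Drd1 and Adora2a, with mouse 220 apart from the rest. These markers show striatal transcripts in all 4 libraries. They do not tell how much of the tissue was striatum in the 3 libraries near the cortical level. Markers of mature oligodendrocytes were also highest in mouse 220, with a summed level of 18263.5 CPM and of 10817 to 11858 CPM in the other 3. Over 11 pallidum and septum genes the sum was 1549 CPM in mouse 220 and 526 to 630 CPM in the other 3. Over 9 ependymal genes it was 72.9 CPM and 25.1 to 35.0 CPM. The part of cortical, white matter, pallidal, septal or ependymal cells in the results was not tested. The main counts are also given without mouse 220. In bulk RNA, fewer cells of a type and less RNA per cell cannot be told apart.

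**Figure D1:**
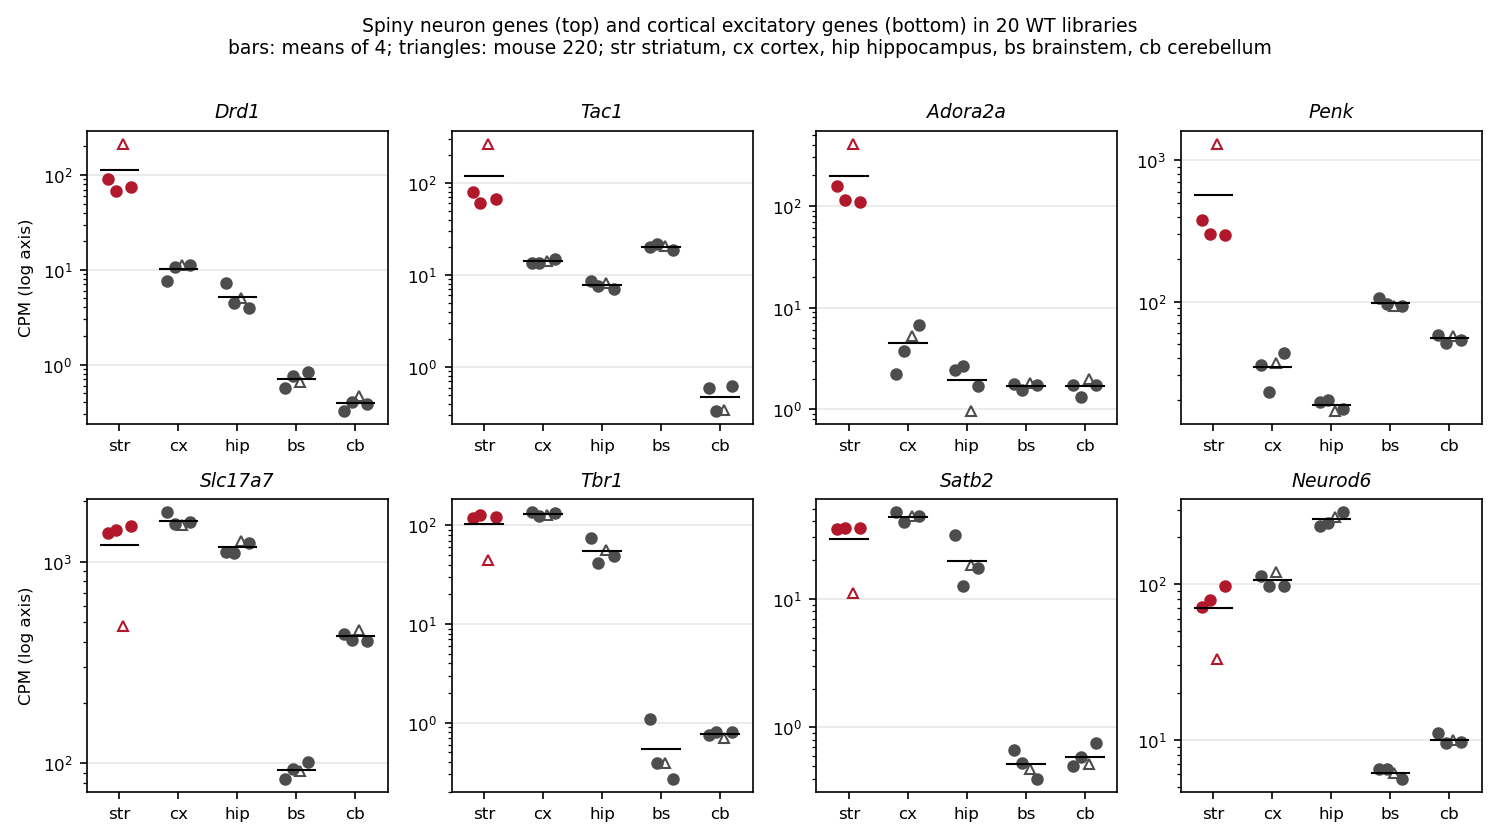
Level in CPM on a log axis of 4 spiny neuron genes (upper row) and 4 cortical excitatory genes (lower row) in the 20 WT libraries, 1 point per library and a bar at the mean of 4. Striatal points are red, and triangles mark mouse 220, whose striatal library was the highest of the 4 for the upper genes (Drd1, 212 CPM) and the lowest for the lower genes (Slc17a7, 481 CPM).

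The libraries also differed by region in ways that no gene defines. The 8 striatal and cortical libraries held 33030415 to 54719126 read pairs counted in genes, fewer than the 64416717 to 112343574 of the 12 others. Pairs assigned to no gene made up 3.92% to 5.15% of the former and 5.98% to 9.15% of the latter. For the contrasts of striatum with cerebellum, brainstem and hippocampus, this difference and the region cannot be told apart, whereas the contrast with cortex lay within libraries of like depth. The cortical library labelled WT-221 had 483 CPM of the X-inactivation transcript Xist and 0.921 CPM of the Y-linked Ddx3y, whereas the striatal library of that number had 5.99 CPM of Xist, so these libraries did not match in sex. Ttr, the main choroid plexus gene, ranged from 37.2 to 1397 CPM over the WT striatal libraries. The p-values measure the spread between libraries of a region, estimated for each gene over all 20 WT libraries in 1 fit. They do not measure the spread of the striatal libraries alone, which was wide for many genes. With the striatum and 1 other region in each fit, 227 genes were higher and 40 lower, beside 566 and 167. Fewer libraries entered each of those fits.

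The contrast with each region gave the background for what follows. Against cerebellum 71.8% of the 22200 genes differed, 35.9% higher and 35.9% lower in the striatum. Against brainstem 66.1% differed (33.0% and 33.0%), against hippocampus 58.2% (29.3% and 28.9%), and against cortex 10.7% (6.77% and 3.91%). Cortex was the region with the smallest difference for 325 of the 566 higher genes and for 105 of the 167 lower genes. The 4 contrasts share the striatal libraries and are not independent. The share of all genes that met the rule was 2.55% for higher and 0.752% for lower, or 3.3% in either direction. Counts of members called regional below are to be read against these shares. The gene lists used below were chosen with earlier results of these data known, so a list's share above the background is no independent evidence.

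**Figure D2:**
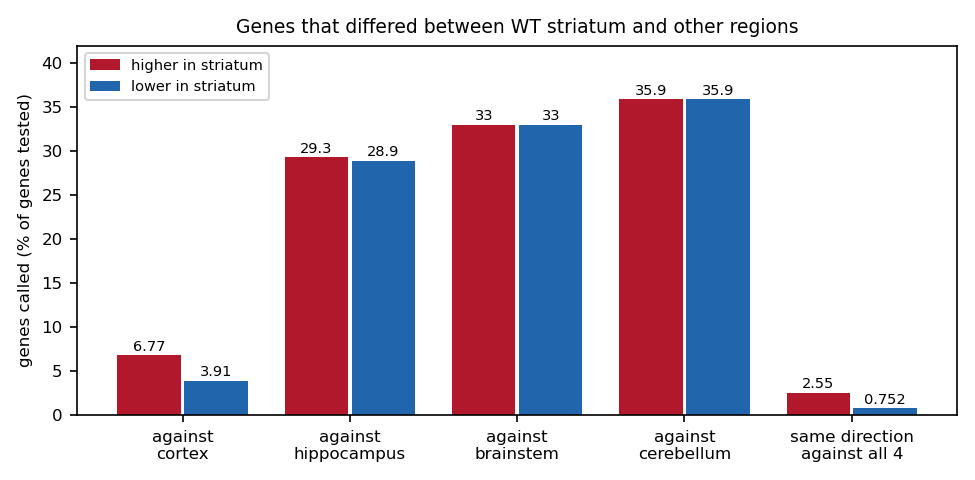
Percent of the 22200 tested genes that were higher (red) or lower (blue) in WT striatum in each of 4 contrasts and in all 4 at once, by edgeR's quasi-likelihood test. Cortex gave the lowest shares of the 4 regions (6.77% higher and 3.91% lower), and 2.55% and 0.752% of genes met the rule.

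Most regional differences were modest. The median log2 difference to the nearest region was 0.53 for the higher genes and -0.38 for the lower genes. At least a 2-fold difference to the nearest region was reached by 169 of the 566 higher genes and by 20 of the 167 lower genes, and an 8-fold difference by 36 and 3 genes. In 412 higher genes all 4 striatal libraries lay above the range of the 16 others, and in 106 lower genes all 4 lay below it. Over all genes tested, 2.55% lay above and 1.44% below in this way. Just inside the threshold were Chmp2a, with a largest adjusted p of 0.0497, and Nmnat2, with 0.0496, and just outside it was Arhgap33, with 0.05001.

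Mouse 220 carried much of the count. Its library was the highest of the 4 striatal libraries in 514 of the 566 higher genes and the lowest in 126 of the 167 lower genes. Without it, 304 genes were higher (1.34% of those tested) and 44 lower (0.194%), and 302 and 44 of these were among the genes called with all 4. All 566 higher and all 167 lower genes kept the sign of their log2 difference to all 4 regions without mouse 220. The genes were chosen with these same libraries, so the kept sign is not independent evidence. The median log2 difference to the nearest region was then 0.36 for the higher and -0.29 for the lower genes. With mouse 220 as the sole striatal library, a choice made after the data were seen, the median for the same higher genes was 0.94, and 2016 genes were higher and 941 lower. That single library was then assumed to vary as much as those of the other regions.

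Promoters are shown for some genes of both spiny pathways that were found in the RefSeq table (build GRCm38.p6). Each sequence holds the 250 bases before the most distal annotated start, read 5′ to 3′ on the gene's strand. Capitals mark TGACG (contained in the cAMP response element TGACGTCA), TGACGTCA itself, TGTTTAC (forkhead), TAATTA (homeodomain) and AGGTCA (nuclear receptor half-site), searched on both strands, so that a match on the minus strand appears as its reverse complement. Drd1 (chr13:54055659-54055908, minus strand) and Tac1 (chr6:7554811-7555060, plus strand) stand for the direct pathway, Drd2 (chr9:49340153-49340402, plus strand) and Gpr6 (chr10:41072291-41072540, minus strand) for the indirect pathway, and Pde7b (chr10:20548329-20548578, minus strand) for the cAMP phosphodiesterases of both.
Drd1: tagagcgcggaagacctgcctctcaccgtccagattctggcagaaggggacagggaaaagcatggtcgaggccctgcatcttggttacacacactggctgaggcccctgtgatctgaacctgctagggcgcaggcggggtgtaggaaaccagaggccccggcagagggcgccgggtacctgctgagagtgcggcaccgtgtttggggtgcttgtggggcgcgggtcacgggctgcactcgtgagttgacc
Tac1: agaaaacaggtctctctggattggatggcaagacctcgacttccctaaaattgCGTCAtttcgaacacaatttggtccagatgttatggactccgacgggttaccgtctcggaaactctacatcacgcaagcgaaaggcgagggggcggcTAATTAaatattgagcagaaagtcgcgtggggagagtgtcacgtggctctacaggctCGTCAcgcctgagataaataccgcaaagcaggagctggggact
Drd2: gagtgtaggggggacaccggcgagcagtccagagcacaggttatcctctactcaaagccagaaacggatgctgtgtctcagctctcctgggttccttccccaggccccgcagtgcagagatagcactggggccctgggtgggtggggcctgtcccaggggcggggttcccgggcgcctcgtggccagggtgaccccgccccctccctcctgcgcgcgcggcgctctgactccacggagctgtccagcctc
Gpr6: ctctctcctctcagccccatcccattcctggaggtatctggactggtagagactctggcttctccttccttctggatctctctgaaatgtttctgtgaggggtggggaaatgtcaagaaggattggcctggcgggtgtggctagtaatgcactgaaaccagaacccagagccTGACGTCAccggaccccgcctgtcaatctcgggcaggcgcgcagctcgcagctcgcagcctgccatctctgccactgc
Pde7b: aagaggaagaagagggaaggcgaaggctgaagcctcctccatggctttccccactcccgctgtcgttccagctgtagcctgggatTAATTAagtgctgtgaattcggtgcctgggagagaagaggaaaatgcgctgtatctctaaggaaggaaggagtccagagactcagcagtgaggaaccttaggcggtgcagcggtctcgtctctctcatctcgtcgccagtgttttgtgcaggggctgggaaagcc

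No searched motif occurred in the windows of Drd1 and Drd2. Tac1, which encodes the substance P precursor, held TGACG on the minus strand starting 197 and 43 bases before the start, and TAATTA 100 bases before it. Gpr6, an orphan receptor gene of indirect pathway neurons, held the full TGACGTCA 78 bases before its start, a palindrome that also counts as TGACG on both strands. Pde7b held TAATTA 165 bases before its start. Of 14188 tested genes with a window in the table, 2.38% held TGACGTCA, 24.1% TGACG, 2.35% TGTTTAC, 2.98% TAATTA and 11.1% AGGTCA. Among the 413 higher genes with a window the shares were 1.45%, 22.5%, 2.42%, 2.66% and 10.2% in that order. Among the 105 of them at least 2-fold above the nearest region, the shares were 0.952%, 12.4% (13 genes), 1.90%, 7.62% (8 genes) and 10.5% in the same order. The 8 genes with TAATTA were Tac1, Pde7b, Syt6, Grap2 and 4 predicted or unnamed transcripts. All these shares are descriptions of letters without a test. No promoter is shown for Adora2a and Penk.

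Of the 9 receptor genes for dopamine and adenosine, all measured, Adora2a, Drd1 and Drd2 were higher, and Drd3, Drd4, Drd5, Adora1, Adora2b and Adora3 were not regional. Of 281 receptor genes that passed the filter on low counts, out of 325 searched, 14 were higher (background 2.55%) and 4 lower (background 0.752%), and 263 were not regional. Adora2a, which couples adenosine to cAMP production in indirect pathway neurons, had cortical values of 2.22 to 6.81 CPM against 110.1 to 406 CPM in the striatum. Its log2 difference to cortex, the nearest region, was 5.44 ± 0.41 (SE, n = 4 per region), with a largest adjusted p of 6.67e-08 in edgeR's quasi-likelihood test. Each SE of a log2 difference was derived from that test, as the absolute difference divided by the square root of the F statistic. Such an SE rests on all libraries of the fit, not only on those of the groups compared. Drd2 was at 102, 68.97, 259 and 70.7 CPM in the striatal libraries and at 12.3 ± 1.09 CPM (SD, n = 4) in brainstem, where it was next highest. The striatal values of Drd2 did not overlap those of any region, and the log2 difference to brainstem was 3.35 ± 0.34 (SE).

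Drd1, the receptor of the direct pathway, ranged from 10.1 ± 1.67 CPM in cortex to 0.394 ± 0.0556 CPM in cerebellum (SD, n = 4), each far below the lowest striatal library. Its log2 difference to cortex was 3.46 ± 0.29 (SE), with an adjusted p of 2.31e-07 in edgeR's test, and it was 2.94 without mouse 220. Gpr6, which signals through cAMP, was at 38.8, 34.3, 113 and 29.5 CPM in the striatum and at 2.90 ± 0.743 CPM in cortex. The groups did not overlap for Gpr6. Per kilobase of exon, the mean striatal level of Adora2a was 64.5 CPM, that of Drd2 49.1 and that of Drd1 30.8, and these levels carry the spread between mouse 220 and the other mice.

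Other receptors were above cortex by less than 2-fold. Chrm4, a muscarinic acetylcholine receptor that opposes cAMP production, was at 42.1, 38.8, 55.8 and 39.3 CPM in the striatum and at 29.3 to 33.7 CPM in cortex. Hrh3, a histamine receptor, was at 95.9, 82.8, 122.5 and 92.3 CPM against 53.7 to 76.4 CPM. Mchr1, which binds melanin-concentrating hormone, was at 26.8, 26.7, 44.2 and 24.3 CPM against 17.8 to 20.5 CPM. For these 3 receptors the 4 striatal libraries lay above every other library, with log2 differences to cortex of 0.51 ± 0.12, 0.59 ± 0.13 and 0.66 ± 0.14 (SE), and all 3 stayed called without mouse 220. Gpr83 differed from cortex by 0.88 ± 0.19 (SE) on the log2 scale. Gpr155 and the kainate receptor subunit gene Grik5 were called by 0.32 and 0.24, overlapped with other regions and were no longer called without mouse 220. Gpr158 was called by 0.17 and stayed called without mouse 220, and not with that library alone, and so did the receptor gene Trhr2 for thyrotropin-releasing hormone (0.59). Sstr5, a somatostatin receptor, was at 0.340, 0.506, 1.25 and 0.415 CPM in the striatum, overlapped with brainstem and lost its call without mouse 220. Receptor genes lower than in all 4 regions were the glutamate receptor subunits Grin3a and Grik1 and the plexins Plxna3 and Plxna4, by 0.32 to 0.39 on the log2 scale, and none of the 4 passed without mouse 220.

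Several receptors known from the striatum did not meet the rule. The μ-opioid receptor gene Oprm1 was at 0.379 to 0.837 CPM in the striatum and at 6.41 ± 0.952 CPM (SD, n = 4) in brainstem. The cannabinoid receptor gene Cnr1 was higher in cerebellum (571 ± 52.4 CPM) than in the striatum (130.5 to 241 CPM). Tacr1, the substance P receptor, was at 12.01, 9.10, 28.1 and 8.06 CPM in the striatum and at 10.4 ± 0.633 CPM in brainstem, so that 3 of 4 striatal libraries lay near the brainstem and mouse 220 above it. None of the 25 GABA and glycine receptor genes, the 7 metabotropic glutamate receptor genes or the 9 opioid, cannabinoid and tachykinin receptor genes measured was regional.

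Among peptide genes, 3 of the regional members encode peptides of the spiny neurons. Of 48 peptide precursor genes listed, 41 passed the filter and 4 were higher (9.76%, background 2.55%), none lower (background 0.752%). Penk, the enkephalin precursor, was at 375, 302, 1305 and 295 CPM in the striatum, at 97.04 ± 5.71 CPM in brainstem and at 34.5 ± 8.44 CPM in cortex (SD, n = 4). Tac1 was at 80.1, 60.0, 264 and 67.2 CPM, next to 20.3 ± 1.28 CPM in brainstem. Pdyn, the dynorphin precursor, was at 52.0, 58.2, 124 and 42.9 CPM, next to 27.9 ± 1.95 CPM in cortex. In all 3 genes the lowest striatal library was above the highest other library, and mouse 220 was more than 2-fold above the rest. The log2 differences to the nearest region were 2.55 ± 0.34, 2.54 ± 0.32 and 1.32 ± 0.23 (SE), and without mouse 220 they were 1.74, 1.77 and 0.87, all still called by edgeR's test. Pthlh, a peptide of a class of striatal interneurons, was at 4.37, 4.49, 7.13 and 4.03 CPM against at most 3.44 CPM elsewhere, and was no longer called without mouse 220.

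Of 38 listed genes that make or carry small transmitters, all measured, 2 were higher (5.26%, background 2.55%) and none lower (background 0.752%). One was Slc32a1, the vesicular GABA transporter, at 145, 141, 259 and 125 CPM in the striatum and 118 to 132 CPM in brainstem, where the groups overlapped. For Slc32a1, 24.9% of its exon bases are shared with another gene, and the counts used do not regard strand. The other was Pnmt, which makes adrenaline, at 0.253 to 1.04 CPM. Neither was called without mouse 220. Gad1, which makes GABA, was higher than in brainstem, hippocampus and cortex but lower than in cerebellum (668 ± 38.1 CPM against 447 to 616 CPM). The cholinergic gene Chat, which makes acetylcholine, was at 9.16, 6.64, 23.3 and 7.08 CPM in the striatum, at 19.7 ± 2.07 CPM in brainstem and below 1 CPM in the other 3 regions.

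Components of cAMP signalling were among the higher genes. Of 48 genes of G proteins, adenylyl cyclases, phosphodiesterases and protein kinase A, 16 were higher (33.3%, background 2.55%) and 1, Adcy7, was lower (by DESeq2 its adjusted p was 0.0516), and the same 16 were called without mouse 220. The list's median log2 difference to cortex was 0.04, beside 0.01 over all genes tested. This list, like the spiny and ventral forebrain lists below, was chosen with earlier results known, so its share only describes its members. Adcy5, the main adenylyl cyclase of spiny neurons, was at 639.5, 493, 1152 and 499 CPM in the striatum and at 165 ± 11.1 CPM in cortex. Ppp1r1b, encoding the protein phosphatase inhibitor DARPP-32, was at 783, 646, 2142 and 605 CPM, next to 141 ± 23.3 CPM in cerebellum. Both were separate from every other library, with log2 differences to the nearest region of 2.08 ± 0.18 and 2.89 ± 0.32 (SE).

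The phosphodiesterases that degrade cyclic nucleotides differed among themselves. Pde10a was at 568, 439, 966 and 425 CPM in the striatum and at most 111 CPM elsewhere. Pde1b was at 641, 500.3, 1300.5 and 477 CPM, next to 149.7 ± 5.85 CPM in cortex. Pde7b was at 93.7, 75.9, 167 and 76.5 CPM, next to 32.2 ± 3.45 CPM in cortex. These 3 were the regional members of the 15 phosphodiesterase genes in the list, by 2.65 ± 0.21, 2.29 ± 0.21 and 1.68 ± 0.18 (SE) on the log2 scale, and the other 12 were not regional.

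G proteins and their regulators made up another group. Gng7, the γ subunit partner of the striatal stimulatory G protein, was at 445, 356, 1075 and 374 CPM in the striatum and 169 ± 15.3 CPM in hippocampus. Gnal, its α subunit, was at 339.5, 281, 530.4 and 308 CPM, next to 194 ± 9.37 CPM in brainstem. Ric8b, a chaperone of that subunit, was at 84.1, 72.5, 137 and 81.4 CPM, next to 67.3 ± 1.96 CPM in brainstem. All 3 were called with and without mouse 220, and the log2 difference of Ric8b was the smallest of them, 0.48 and 0.24 without that library. Of 22 RGS genes, whose products speed the turn-off of G proteins, 5 were higher (background 2.55%) and none lower. Rgs9 was at 187, 138, 406 and 129.8 CPM against at most 18.004 CPM elsewhere, a log2 difference to cortex of 3.91 ± 0.28 (SE). Rgs4, at 756, 794, 794 and 737 CPM, differed in that mouse 220 was like the other striatal libraries, and cortex reached 611 CPM. Rgs2 was called as well, by 0.97, with Rgs20 and Rgs12.

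Other members of the signalling list were Rasd2, a small GTPase, with 348, 278, 741 and 275 CPM against 65.8 ± 12.5 CPM in cortex, and the phosphatase gene Ptpn5 with 320.0, 279, 617 and 289 CPM against 183 ± 7.43 CPM. Of 20 genes listed for signalling in both spiny classes, 14 were higher with mouse 220 (background 2.55%) and 14 without it (background 1.34%). Of 10 direct pathway genes 6 were higher, and of 7 measured indirect pathway genes 6 were higher, again with and without that library. Their median log2 difference to cortex was 2.18, 1.41 and 4.21, beside 0.01 over all genes tested. Scn4b, a sodium channel β subunit gene used as a spiny neuron marker, was at 588, 483, 1163 and 472 CPM in the striatum and did not differ from brainstem (542 ± 15.02 CPM, adjusted p = 0.19).

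**Figure D3:**
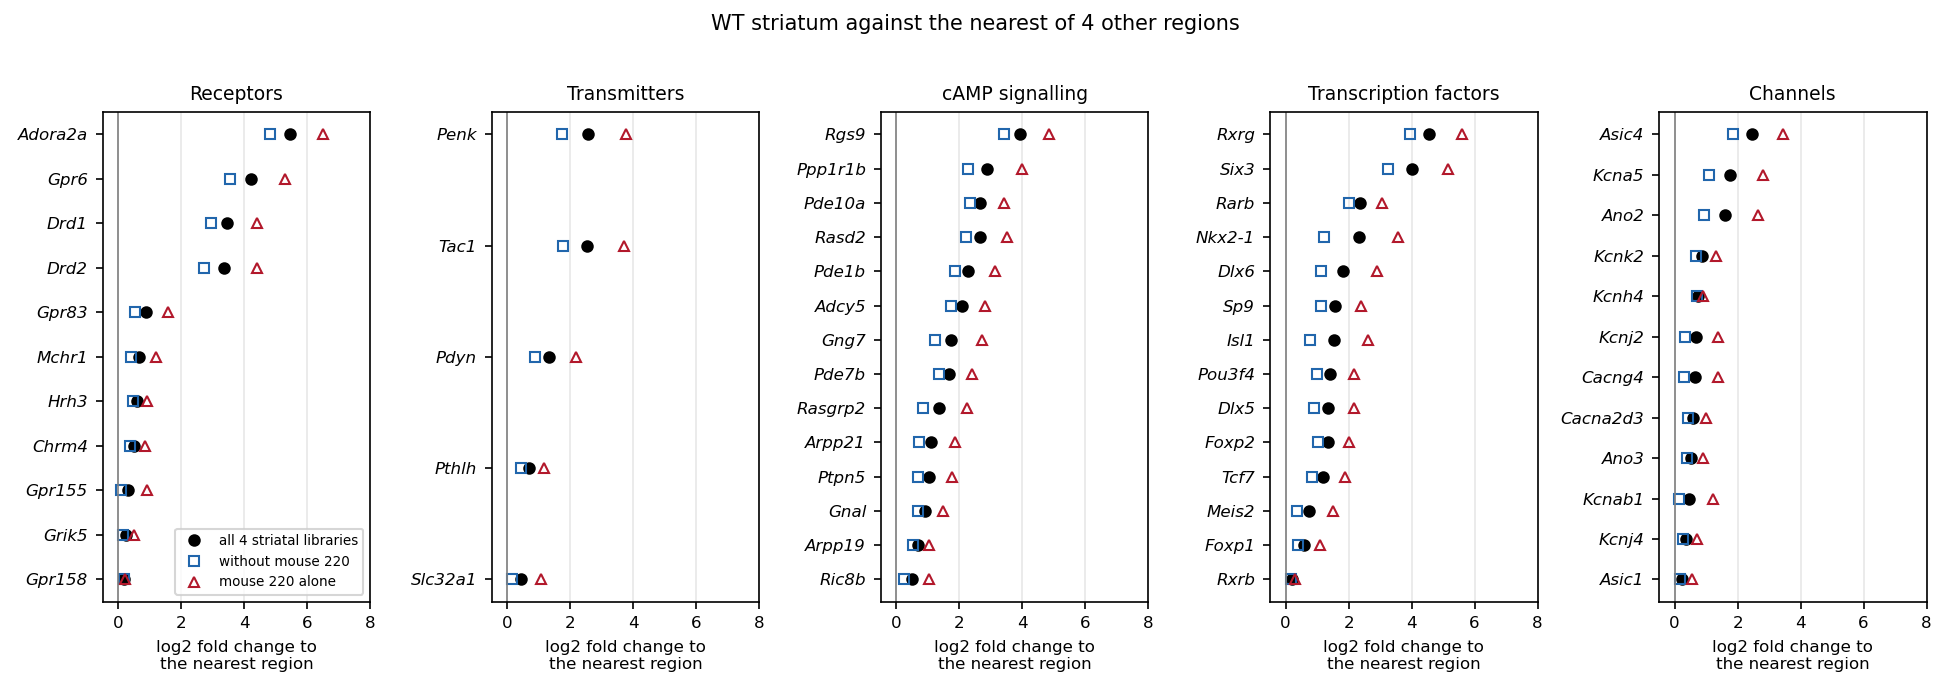
Log2 fold change between WT striatum and the nearest of the 4 other regions for named genes of 5 classes, with all 4 striatal libraries (black), without mouse 220 (blue squares) and with mouse 220 alone (red triangles). For Adora2a the value was 4.81 without mouse 220, 5.44 with all 4 libraries and 6.49 for mouse 220 alone, and most genes followed this order.

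Of 546 measured transcription factor genes, 21 were higher (background 2.55%) and 8 lower (background 0.752%). Of 23 factors listed for the ventral forebrain and the spiny lineage, 11 were higher and none lower. Their median log2 difference was 1.40 to cortex and 5.35 to cerebellum. Rxrg, a retinoid X receptor, was at 59.7, 40.6, 157 and 52.3 CPM in the striatum and at most 3.94 CPM elsewhere. Rarb, a retinoic acid receptor with 38.4% of its exon bases shared with another gene, was at 18.5, 15.9, 32.5 and 13.2 CPM, next to 3.91 ± 0.711 CPM in brainstem. Both nuclear receptor genes were separate from all other libraries, with log2 differences to the nearest region of 4.57 ± 0.34 and 2.37 ± 0.21 (SE). Rxrb, another retinoid X receptor, was called by 0.19 and was not called without mouse 220.

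Several homeobox factors of the ventral forebrain were higher. Six3, a factor of indirect pathway neurons, was at 27.2, 12.6, 68.9 and 16.4 CPM in the striatum and at most 3.45 CPM elsewhere. Isl1, a factor of direct pathway and cholinergic neurons, was at 5.73, 4.20, 16.3 and 3.67 CPM, next to 2.702 ± 0.260 CPM in brainstem. Meis2 was at 209.03, 165, 410.2 and 197 CPM, next to 147 ± 6.70 CPM in brainstem. All 3 stayed called without mouse 220, by 3.26, 0.77 and 0.37 on the log2 scale, whereas DESeq2 did not call Isl1 (adjusted p = 0.137). Dlx5 and Dlx6 were called by 1.36 and 1.84, while their relatives Dlx1 and Dlx2, at 35.2 to 45.0 and 4.97 to 7.70 CPM, were not, and Dlx1 reached 45.0 CPM in cortex too. Sp9, a zinc finger factor of the indirect pathway, was at 19.1, 15.2, 38.5 and 14.8 CPM, next to 7.47 ± 0.940 CPM in cortex.

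Forkhead factors of the spiny lineage differed in their nearest region. Foxp1 was at 102, 99.8, 156 and 95.1 CPM in the striatum, next to 75.5 ± 5.78 CPM in hippocampus, and Foxp2 was at 28.9, 25.4, 51.0 and 23.1 CPM, next to 12.7 ± 1.55 CPM in brainstem. They were the 2 regional genes of the 33 forkhead genes measured (6.06%, background 2.55%), with log2 differences of 0.59 ± 0.12 and 1.35 ± 0.27 (SE). Lhx8 and Nkx2-1, factors of cholinergic and other interneurons, were low: Lhx8 was at 2.75, 1.33, 9.39 and 1.96 CPM and at most 0.171 CPM elsewhere, and Nkx2-1 at 1.91, 1.26, 7.70 and 1.42 CPM and at most 1.08 CPM elsewhere. Mouse 220 was the highest library for each of these factors. It was also the highest striatal library for the summed pallidum and septum genes, and the part of such tissue here was not tested. Bcl11b, a factor needed for spiny neurons, was not regional, since hippocampus was higher (199 ± 29.2 CPM against 87.4 to 199 CPM). Ebf1, another factor of the spiny lineage, was higher than in hippocampus and cortex but lower than in cerebellum and brainstem.

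**Figure D4:**
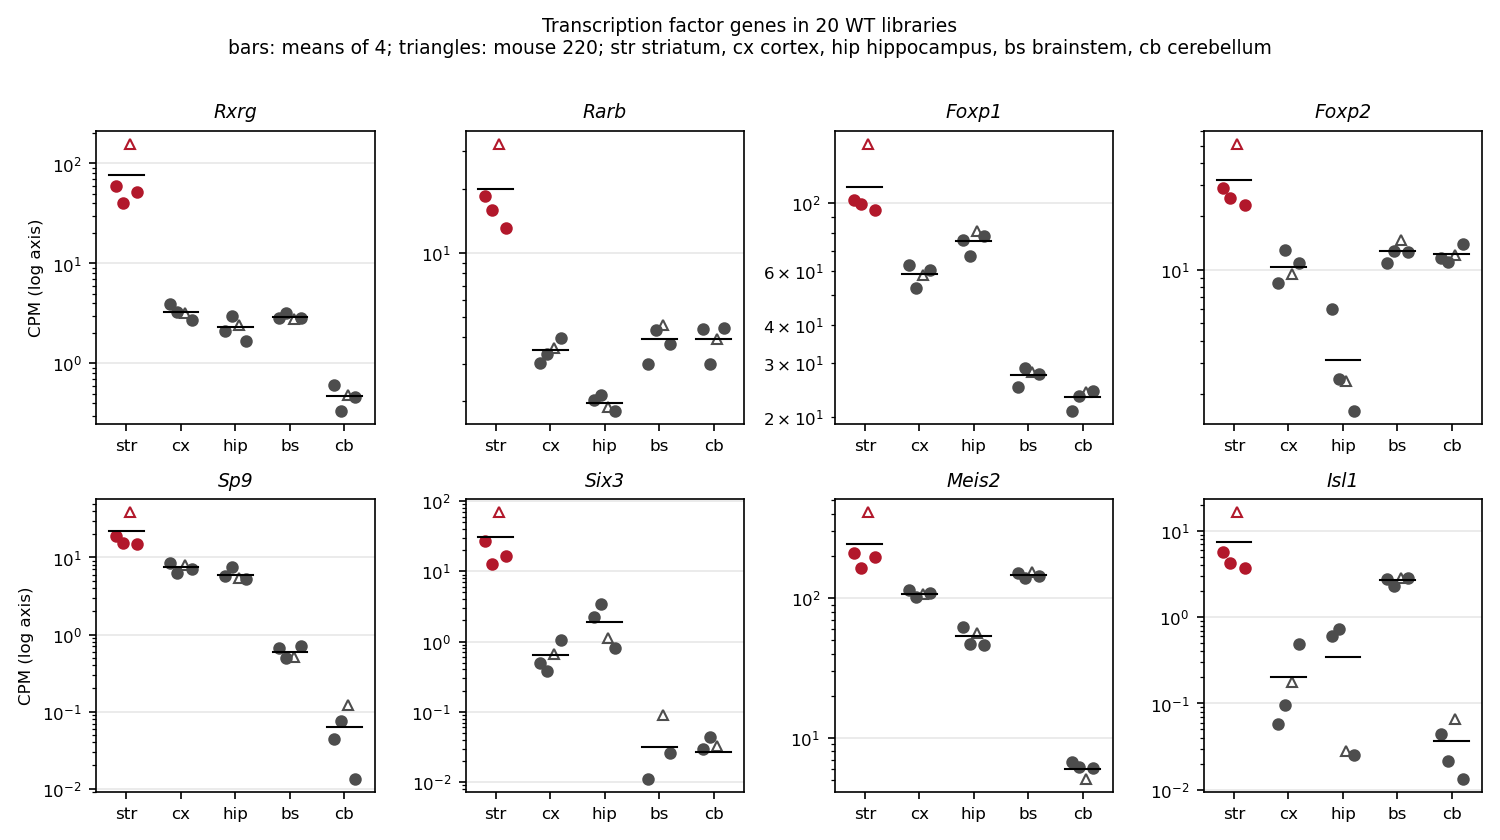
Level in CPM on a log axis of 8 transcription factor genes in the 20 WT libraries, drawn as in the plot of marker genes. The striatal points lie above all others in each panel, as for Rxrg (at most 3.94 CPM elsewhere), and 1 brainstem and 1 cerebellar library with Six3 at 0 are not drawn.

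Lower factors included some of other regions. Zic2, a zinc finger factor of granule cells, was at 9.79, 6.54, 11.1 and 8.44 CPM in the striatum, next to 15.3 ± 1.37 CPM in cortex and far below 278 ± 7.62 CPM in cerebellum. Etv1 was at 64.0, 64.2, 75.1 and 74.1 CPM, next to 96.05 ± 1.41 CPM in brainstem. For both genes every striatal library lay below all others, and both were called without mouse 220 and not in that library alone. Neurod1, a factor of excitatory neurons, was at 9.08, 6.61, 1.82 and 6.49 CPM, overlapped with brainstem (5.86 to 14.4 CPM) and was called neither without mouse 220 nor by DESeq2 (adjusted p = 0.0566). Maf was lower by 0.35 and lost its call in the same way. None of the 25 measured factors listed for cerebellum and brainstem was higher, and neither was any of the 18 listed for cortical excitatory neurons.

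Of 202 ion channel genes measured, 16 were higher (background 2.55%) and 3 lower (background 0.752%). Asic4, of the acid-sensing family, was at 32.3, 24.4, 78.3 and 23.5 CPM in the striatum and at most 7.68 CPM elsewhere. Kcna5, a voltage-gated potassium channel, was at 12.4, 10.1, 32.9 and 7.97 CPM, next to 4.81 ± 0.489 CPM in brainstem. Kcnk2, a background potassium channel, was at 103, 86.6, 148 and 93.2 CPM, next to 59.4 ± 1.06 CPM in cortex. All 3 were separate from the other regions and stayed called without mouse 220, with log2 differences to the nearest region of 2.44 ± 0.28, 1.75 ± 0.30 and 0.86 ± 0.12 (SE) with all libraries.

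Other channel genes were called by smaller steps. Ano3, of the anoctamin family, was at 243, 222, 317 and 229 CPM and reached 213 CPM in hippocampus, and Ano2 was called by 1.61. Cacna2d3 and Cacng4, which encode auxiliary subunits of calcium channels and AMPA receptors, were called by 0.57 and 0.66. Kcnj4, an inward rectifier that sets the resting potential, was at 188, 189.7, 253 and 184 CPM in the striatum and at 149 to 169 CPM in cortex. Kcnj4, Kcnj2, Kcnh4, Kcnab1, Cacnb1, Stim1 and Cftr lost their call without mouse 220, so that 9 of the 16 higher channel genes remained. Over all regional genes, 302 of 566 higher (53.4%) and 44 of 167 lower genes (26.3%) remained, so the channel genes were near the general share. The lower channel genes were the potassium channels Kcnd3 and Kcnk10 and the cation channel Trpc5, at 6.18, 4.14, 1.23 and 4.77 CPM in the striatum and 7.81 CPM or more elsewhere, and without mouse 220 only Kcnd3 of the 3 was called. None of the 14 voltage-gated sodium channel genes was regional.

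Genes outside these classes also stood among the 15 with the largest differences. Cd4, best known as a T cell co-receptor, was at 33.2, 23.2, 87.9 and 24.7 CPM in the striatum and at most 2.27 CPM elsewhere. Ido1, a tryptophan-degrading enzyme, was at 7.25, 5.88, 23.0 and 5.63 CPM and at most 0.610 CPM elsewhere. Sh3rf2 was at 26.4, 21.1, 53.9 and 21.5 CPM and at most 1.44 CPM elsewhere. Their log2 differences to cortex were 5.06 ± 0.42, 4.56 ± 0.47 and 5.13 ± 0.47 (SE), and each held without mouse 220 (4.40, 3.78 and 4.70). Serpina9, Syndig1l, Ptprv and the transcript Lrp8os2 also belonged to the list, as did Adora2a, Rxrg, Gpr6, Six3, Rgs9, Drd1 and Drd2. The 12 microglial marker genes summed to 501 to 654 CPM in the striatum, 1 of them (Trem2) was higher (8.33%, background 2.55%), and it was not called without mouse 220.

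The 10 lower genes with the largest differences were of several kinds. Dcn, a matrix proteoglycan of fibroblasts, was at 8.64, 8.38, 7.66 and 8.92 CPM in the striatum and at 14.3 CPM or more elsewhere. Serping1, a complement inhibitor, was at 3.74, 2.37, 3.02 and 2.93 CPM against at least 5.09 CPM, and Ogn and Tnxb were also below all other libraries. Cabp7, a neuronal calcium-binding protein, was at 13.7, 13.8, 14.01 and 15.8 CPM, below 33.0 ± 5.19 CPM in cortex and 166 ± 18.4 CPM in hippocampus. Its log2 difference to cortex was -1.20 ± 0.10 (SE), with a largest adjusted p of 3.49e-07 in edgeR's test, and mouse 220 did not stand apart for it. Chst8, Tbc1d1 and Efr3a completed the 10 with Trpc5 and Zic2, and Efr3a was at 129, 161, 66.0 and 154 CPM, lowest in mouse 220.

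The same rule was applied to mice the rule had not used. The series held 20 libraries of 154Q mice (Atxn1 154Q/2Q), which carry an expanded CAG repeat knocked into 1 Atxn1 allele. It held 19 libraries of 154Q-AXH mice, in which the expanded allele also carries the substitutions V591A and S602D, at the same age and in the same regions. In 154Q mice 143 of the 566 higher genes (25.3%) were again higher than in all 4 regions, where 0.781% of all genes tested met the rule, and 40 of the 167 lower genes (24.0%) were again lower, against 0.297%. In 154Q-AXH mice 233 higher genes (41.2%) and 57 lower genes (34.1%) were called again, against 1.43% and 1.07%. No gene was called in the opposite direction in either genotype. These counts depended on single libraries. With 1 library left out at a time, 115 to 183 higher and 19 to 50 lower genes were called again in 154Q mice, with 19 lower without striatal mouse 69, 23 without striatal mouse 76 or cortical mouse 71, and 26 without cortical mouse 76. In 154Q-AXH mice 148 to 305 higher and 31 to 69 lower genes were called again, with 148 and 37 without the striatal library of AXH-217 and 37 lower without its cortical library. The deposited files of the cortical libraries of mouse 76 (154Q) and AXH-207 carry each other's names, and each was used here under its label. Without cortical AXH-207, 165 higher (29.2%) and 31 lower genes (18.6%) were called again in 154Q-AXH mice, against 1.0% and 0.433% of all genes tested. The hippocampal library of mouse 76 (154Q) was also flagged, as one whose labels, files or genes disagree. Without it 183 higher (32.3%) and 50 lower genes (29.9%) were called again in 154Q mice. Without its cortical library as well, 166 (29.3%) and 43 (25.7%) were, where 199 and 76 of 22965 genes tested met the rule.

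In both mutant genotypes 126 of the higher and 26 of the lower genes were called again. The following counts cover only list members called higher in WT, beside 126 of 566 over all higher genes. Called again were 5 of 6 direct pathway genes (10 measured), 5 of 6 indirect pathway genes (7 measured) and 12 of 14 spiny signalling genes (20 measured). So were 9 of 11 ventral forebrain factors (23 measured) and 10 of 16 cAMP genes (48 measured). The share of all genes tested that was called in both genotypes was not computed. Adora2a differed from the nearest region by 3.84 and 4.25 on the log2 scale in the 2 genotypes, Drd1 by 2.19 and 2.44, Rxrg by 2.93 and 3.41, and Tac1 by 2.05 and 2.44. Penk was not called in 154Q mice (0.36) and was called in 154Q-AXH mice (1.02). Chrm4, Hrh3 and Rgs4 were called in neither, and Cabp7 was again lower in both, with log2 differences to the nearest region of -1.20 and -1.74.

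Within the striatum, levels of the regional genes were then compared between genotypes, in 12 libraries of 4 mice per genotype. The 4 WT striatal libraries enter both this comparison and the choice of the genes, so the counts describe the members and are not independent evidence. In 154Q mice 132 of the 560 higher genes tested were lowered (23.6%, beside 3.77% of all 18408 genes tested) and none was raised (beside 1.92%), and 5.69% of all genes changed in either direction. In 154Q-AXH mice 32 were lowered (5.71%, beside 1.08%) and none raised (beside 0.277%), and 1.35% of all genes changed. Of the 160 lower genes tested, 13 were raised in 154Q mice (8.13%, beside 1.92%) and 2 lowered (1.25%, beside 3.77%), and 1 was raised and 1 lowered in 154Q-AXH mice. Without WT-220 and AXH-217, a choice made after the data were seen, 174 of 556 higher genes were lowered in 154Q mice and 4 raised. Of all genes in that fit, 7.45% were lowered and 4.31% raised. For 154Q-AXH mice the counts were 96 lowered and 2 raised, beside 3.80% of all genes lowered and 1.26% raised. The summed cortical excitatory markers were 4461 to 5246 CPM in 154Q striatum and 2480 to 5597 CPM in 154Q-AXH striatum, beside 2837 to 6731 CPM in WT, and the part of this in the genotype differences was not tested. The striatal libraries of mouse 75 (154Q) and AXH-217 had 518 and 592 CPM of Xist, and the other 10 striatal libraries at most 5.99 CPM, so sex also differed within the mutant groups. The mutant genotypes were not tested against each other.

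**Figure D5:**
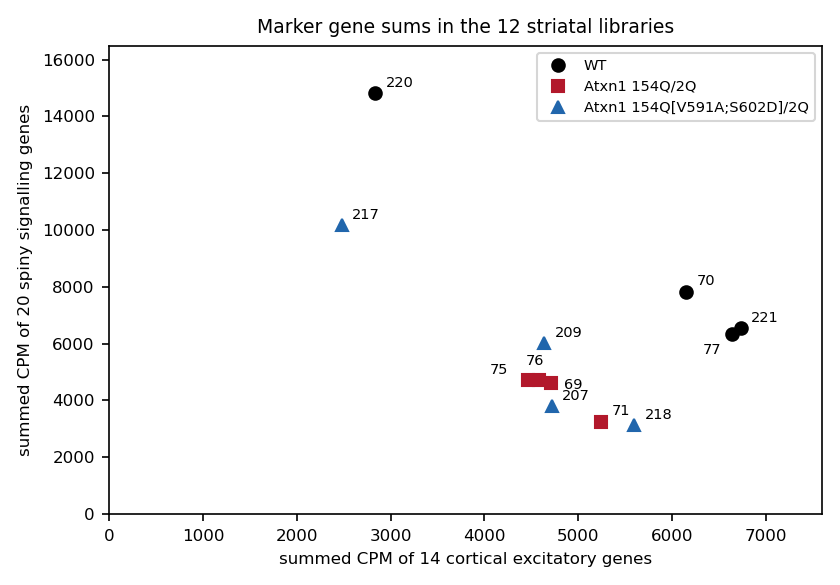
Summed CPM of 14 cortical excitatory genes against summed CPM of 20 spiny signalling genes in the 12 striatal libraries, labelled by mouse number and coloured by genotype. WT-220 and AXH-217 lie apart from the rest (2837 and 2480 CPM of cortical genes), and the other 10 libraries hold 4461 to 6731 CPM of cortical genes.

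Hrh3 was lowered in both mutant genotypes. On the scale of the 12 striatal libraries it was at 96.004, 82.5, 119.7 and 92.7 CPM in WT, at 30.4, 28.3, 29.5 and 28.6 CPM in 154Q, and at 39.1, 48.1, 41.9 and 41.5 CPM in 154Q-AXH mice. The 3 genotypes did not overlap, and the log2 differences to WT were -1.74 ± 0.10 and -1.20 ± 0.10 (SE), with adjusted p of 2.53e-06 and 0.000124 in edgeR's test. Mouse 220 was not far from the other WT mice for this gene.

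Rgs4 was at 740.1 to 791 CPM in WT, 339.9 to 429 CPM in 154Q and 367 to 482 CPM in 154Q-AXH striatum, again without overlap with WT. Chrm4, Arpp19, Ppp1r1a, Kcnh4 and the calcium channel subunit gene Cacnb1 were lowered in both genotypes as well. Cabp7, one of the 2 lower regional genes that were lowered in 154Q mice, changed from 13.7 to 15.9 CPM in WT to 5.35 to 6.60 and 6.70 to 7.70 CPM, with log2 differences of -1.22 ± 0.09 and -0.99 ± 0.09 (SE). These genes were also called without WT-220 and AXH-217.

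Classic spiny markers varied widely between libraries, and Drd1 and Adora2a did not pass the test in either genotype. Drd1 was at 67.4 to 207.3 CPM in WT, at 31.2 to 50.0 CPM in 154Q and at 24.0 to 118 CPM in 154Q-AXH striatum, with log2 differences to WT of -1.37 ± 0.45 (adjusted p = 0.0974) and -0.86 ± 0.45 (adjusted p = 0.476). Adora2a was at 110.6 to 397, 32.8 to 59.9 and 25.9 to 193 CPM, with adjusted p of 0.0654 and 0.426 in edgeR's test. Penk, at 296 to 1275 CPM in WT, was lowered in 154Q mice (61.8 to 133.6 CPM, log2 difference -2.36 ± 0.60, adjusted p = 0.0382) and gave -1.56 ± 0.58 (adjusted p = 0.258) in 154Q-AXH mice. Without WT-220 and AXH-217, the adjusted p was 0.0467 for Drd1, 0.0182 for Adora2a and 0.00532 for Penk in 154Q striatum.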

How the data were processed

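The authors sequenced polyadenylated RNA as paired ends and deposited raw read counts per gene from STAR. The submitters' processing notes name Trimmomatic 0.36, STAR 2.7.2d, DESeq2 1.28.1 and build GRCm38.p6. Counts without regard to strand were used, so values of overlapping genes are uncertain. GENCODE annotation of that build matched 54165 of 54232 gene identifiers.

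The 20 WT libraries were fitted with edgeR 4.0.16 (R 4.3.3) after its filter on low counts, with region as the only term, TMM scaling and the quasi-likelihood test. P-values were adjusted by Benjamini-Hochberg over all 22200 genes in each contrast. The smallest WT library held 33030415 counted pairs. The script was tested on simulated data. The members and gene lists were chosen with earlier results of these data known. Named genes were members of lists and families with large differences or of textbook interest, and the 15 higher and 10 lower regional genes with the largest difference to the nearest region among those with no overlap and a mean of at least 5 CPM. Trem2, Xist, Ddx3y and Ttr serve as checks, and genes near the threshold were chosen after their values were seen. One gene that the rule names is not reported here. Mutant libraries were fitted within genotype, and the 12 striatal libraries in 1 fit. Alternatives included DESeq2 1.42.0, other scaling and filters, thinning, a replicate block and leaving out libraries.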

Additional observations from a re-analysis of the deposited data

Results flagged for a closer look

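In 35 of the 90 named regional genes 1 of the 4 WT striatal libraries stood apart, its gap to the nearest of the others exceeding Dixon's 95% critical share of the whole range. For separate groups of values chance alone would give about 1 in 20. These genes share the same 4 libraries and were chosen as regional, so that share is no background for the 35. The share over all genes tested was not computed. In 32 of the 35 genes, all higher in the striatum, the library that stood apart was that of mouse 220, and it was the highest. Its levels in CPM were Ppp1r1b 2142, Arpp21 1444, Penk 1305, Gng7 1075, Arpp19 801, Rasd2 741, Ptpn5 617, Adora2a 406, Syndig1l 397, Kcnab1 388 and Tac1 264. Its levels were lower in CPM for Slc32a1 259, Kcnj4 253, Rgs2 235, Cacna2d3 232, Drd1 212, Rxrg 157, Foxp1 156, Gpr6 113, Cd4 87.9, Asic4 78.3 and Sh3rf2 53.9. At smaller levels it had, in CPM, Mchr1 44.2, Serpina9 43.1, Ano2 38.7, Dlx6 28.0, Pou3f4 27.9, Ido1 23.0, Dlx5 18.04, Isl1 16.3, Nkx2-1 7.70 and Pthlh 7.13. For the lower gene Maf the library of mouse 220 was the lowest, at 14.4 CPM. For the lower genes Tnxb and Cabp7 the library of WT-221 was the highest, at 3.79 and 15.8 CPM. The values with and without mouse 220 stand beside the results above, and the part of the cortical markers that were low in that library was not tested.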

How the results depend on the processing

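None of the 90 named regional genes changed direction under any alternative, and 31 of them were called under every one. All alternatives share libraries with the choice of these genes. Against 566 higher and 167 lower regional genes, DESeq2 called 305 lower. Separate fits of the striatum with 1 other region gave 227 and 40, and 777 for cortex (2372 in the fit of all regions). Tested against a log2 change of 1 by edgeR, 80 genes were higher and 0 lower, beside 167 lower by edgeR and 305 by DESeq2 against no change, and the contrasts gave 5457 (cerebellum), 3668 (brainstem), 1519 (hippocampus) and 143 (cortex). Only WT-70 and WT-77 gave 131, 10 and 425 for cortex, and only WT-220 and WT-221 gave 231, 32 and 628; fewer samples entered these fits. Mouse 220 as the sole striatal library, chosen after seeing the data, gave 2016, 941 and 7191. Leaving out 1 library at a time gave 304 to 675 higher and 44 to 274 lower genes, 15460 to 16244 for cerebellum, 14159 to 14976 for brainstem, 12166 to 13099 for hippocampus and 1214 to 3074 for cortex. Lower genes numbered 44 without striatal 220, 274 without striatal WT-221, 96 without cortical 220 and 103 without cortical WT-221, and the last left 1514 for cortex. Other causes were not tested.

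In mutant mice, leaving out 1 library gave 138 to 233 regional genes for Atxn1 154Q/2Q (183 with all) and 185 to 374 for Atxn1 154Q[V591A;S602D]/2Q (290 with all, 185 without striatal AXH-217). Regional genes that differed from WT striatum numbered 147 and ranged from 70 to 201 in the former. They numbered 34 and ranged from 13 (without AXH-207) to 59 (without AXH-217) in the latter, with 77 by DESeq2, 12 in a fit of only the 2 genotypes and 104 without WT-220 and AXH-217, chosen after seeing the data.

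The labels do not say that a number marks 1 animal. Same-numbered libraries correlated in their deviations from group means by -0.25 to 0.38 over 40 pairs, 8 of them over 0.1. Pairs of different numbers gave -0.31 to 0.27 over 120 pairs, 17 of them over 0.1. These ranges overlap, so the correlations cannot decide whether a number marks 1 animal. For WT-221 the Y-linked Ddx3y was at 0.921 CPM in the cortical library. It was at 159 CPM in the cerebellar, 145 in the brainstem, 97.9 in the hippocampal and 73.0 in the striatal library of that label. As labelled, the WT-221 libraries are therefore not all of 1 animal. With the number as a replicate block, 597 genes were higher and 182 lower, and 430 and 164 without cortical WT-221. With the block, Gpr155, Sstr5, Adcy7, Maf, Kcnj4 and Gja1 were no longer called, and with the block but without cortical WT-221 neither were Grik5, Pthlh, Rxrb and Zic2. Depth, 33030415 pairs in the smallest WT library, limits genes near 1 CPM most.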
